A study of Rattus norvegicus with 10 samples.

Results

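The islet hormone genes are the 7 genes Ins1, Ins2, Gcg, Sst, Ppy, Iapp and Pyy, whose products are the peptide hormones of the pancreatic islet. Every probe set annotated to exactly 1 of these symbols was taken, which gave 7 probe sets, 1 for each gene, out of 31042 tested, and 7 of 14217 genes with a symbol. None of the 7 probe sets is shared with another gene in the annotation. Each of 10 Affymetrix arrays gives 1 log2 intensity per probe set, and the arrays fall into 5 groups of 2.

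BioBreeding (BB) rats develop autoimmune diabetes, and their lyp locus causes lymphopenia. Per the labels, DR+/+ and JB rats are diabetes resistant but inducible and lack the lyp mutation, and JBlyp/lyp rats are diabetes prone and homozygous for it. F344 rats are healthy controls without lyp, and F344lyp rats are healthy controls that carry lyp by their name. Islets of all groups were taken at an age of 40 days, animals were fasted for 12 h before islet isolation, and those with a blood glucose above 250 mg/dl were left out, per the protocols. The islets came from male rats, after collagenase digestion and a density gradient. According to the growth protocol, DR+/+ and JBlyp/lyp animals were offspring of DRlyp/+ pairs, whereas the treatment protocol mentions WF and DRlyp/lyp animals but no JB group. The relation of JB to DR is not given. The labels call the 2 arrays of a group biological replicates without saying whether each holds 1 animal or pooled islets, so p-values here reflect only the spread among these samples.

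Islets hold several endocrine cell types, each of which makes its own peptide hormone from a larger precursor. Beta cells make insulin, from the Ins1 and Ins2 genes in rats, and co-secrete islet amyloid polypeptide, the product of Iapp. Alpha cells make glucagon from Gcg, delta cells make somatostatin from Sst, and PP cells make pancreatic polypeptide from Ppy, while Pyy encodes peptide YY, which is made in islet cells and in the endocrine cells of the gut.

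The promoters of 4 members are shown, as the 250 bases upstream of the RefSeq start site in assembly GRCr8. Ins1 and Ins2 are shown because they are close copies of each other, Sst because it had the largest difference between groups, and Pyy because it was the member called for lyp. The Ins1 window is chr1:261185869-261186118 on the plus strand and the Ins2 window is chr1:207273806-207274055 on the minus strand. The Sst window is chr11:90461296-90461545 on the plus strand and the Pyy window is chr10:87562471-87562720 on the minus strand. Capitals mark matches, on either strand, to the 4 short motifs named after the sequences, with overlapping matches counted separately.
Ins1: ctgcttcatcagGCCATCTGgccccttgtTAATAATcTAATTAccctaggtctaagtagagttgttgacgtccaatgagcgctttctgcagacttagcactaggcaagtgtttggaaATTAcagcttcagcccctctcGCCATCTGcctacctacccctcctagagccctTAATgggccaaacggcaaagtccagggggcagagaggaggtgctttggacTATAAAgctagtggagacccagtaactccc
Ins2: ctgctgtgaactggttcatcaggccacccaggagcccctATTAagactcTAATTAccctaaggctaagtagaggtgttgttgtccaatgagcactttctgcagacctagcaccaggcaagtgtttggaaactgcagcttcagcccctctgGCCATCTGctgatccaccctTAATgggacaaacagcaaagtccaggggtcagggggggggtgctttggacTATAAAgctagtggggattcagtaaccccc
Sst: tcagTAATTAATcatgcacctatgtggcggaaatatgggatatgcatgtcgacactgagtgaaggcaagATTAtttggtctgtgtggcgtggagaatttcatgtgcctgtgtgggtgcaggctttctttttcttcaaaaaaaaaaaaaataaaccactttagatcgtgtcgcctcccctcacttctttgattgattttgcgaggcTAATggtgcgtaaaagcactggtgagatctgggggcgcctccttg
Pyy: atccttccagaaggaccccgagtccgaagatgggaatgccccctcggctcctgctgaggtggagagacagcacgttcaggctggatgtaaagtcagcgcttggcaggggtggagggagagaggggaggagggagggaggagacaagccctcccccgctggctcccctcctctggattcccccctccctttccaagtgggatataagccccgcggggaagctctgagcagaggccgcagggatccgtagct

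The Ins1 and Ins2 windows were identical at 204 of 238 aligned bases (85.7%), whereas the other 20 pairs of member promoters, aligned the same way, shared 50.0% to 64.8%. Both insulin windows hold TATAAA with its first base at -30 from the start site, and 12.9% of the 33469 promoters in the table hold that motif. GCCATCTG, the E box core of insulin promoters, occurs 2 times in the Ins1 window, at -238 and -112, and 1 time in the Ins2 window, at -100, against 0.998% of all promoters. The homeodomain core TAAT, which 57.0% of all promoters hold, occurs 6 times in Ins1, 4 times in Ins2, 5 times in Sst and 0 times in Pyy. TGACGTCA, the cAMP response element, is in 1.59% of all promoters and in 0 of the 7 member windows. The Pyy window holds 0 of the 4 motifs. Bases outside the windows, including those downstream of the RefSeq start site, were not searched. A count of 0 therefore does not show that a gene lacks the motif nearby. Ppy and Pyy are neighbours on chromosome 10, 5110 bases apart with 0 annotated genes between them in GRCr8.

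The 2 DR+/+ arrays stood apart from the other 8 before any single gene was considered. They correlated with each other at 0.991 across probe sets and with the other arrays at 0.914 to 0.943, while the other 8 correlated at 0.954 to 0.997. The Gapdh 3 prime minus 5 prime signal, a measure of RNA or labelling quality, was 3.18 to 3.39 (log2) in DR+/+, 3.31 to 3.71 in JB, 2.75 to 2.97 in JBlyp/lyp, 2.35 to 2.43 in F344 and 2.19 to 2.20 in F344lyp. The same measure from beta-actin ordered the groups differently, with 2.57 to 2.86 in DR+/+, 2.72 to 2.77 in F344lyp, 2.95 to 3.06 in F344, 3.30 to 3.43 in JBlyp/lyp and 3.40 to 4.17 in JB. Every comparison that uses DR+/+ rests on these 2 arrays, and results are given with and without them where both are possible.

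The labelled tissue was checked against its hormones, whose signals were bright on all arrays. Ins1 ranked between 1 and 5 among the 31042 probe sets on every array and was the brightest on 6 of the 10, and Ins2 ranked between 3 and 19. Gcg ranked between 10 and 200, Sst between 14 and 494, Iapp between 32 and 475, Ppy between 32 and 651 and Pyy between 108 and 1251. These ranks describe signal on the arrays and do not order the amounts of transcript.

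**Figure D1:**
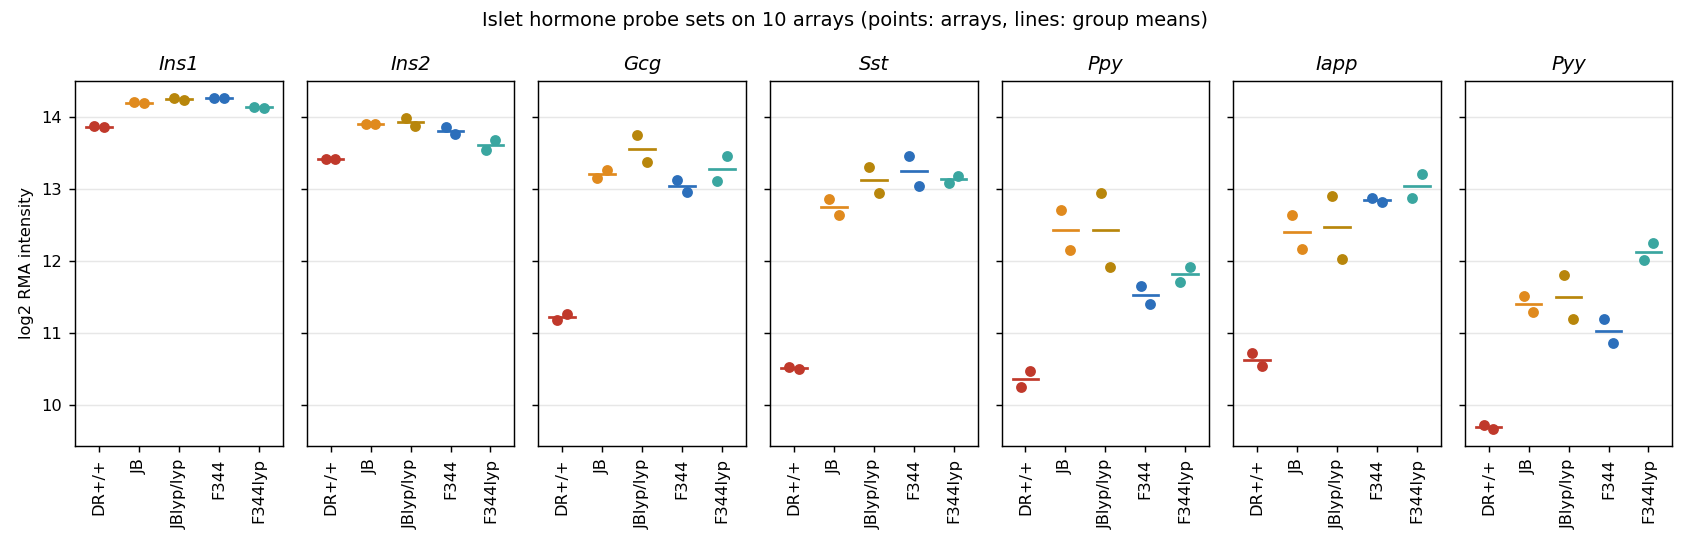
Log2 RMA intensity of the 7 hormone probe sets, 1 panel per gene, with the 5 rat groups on the horizontal axis; points are the 2 arrays of a group and lines are group means. In each panel both DR+/+ arrays lie below the 8 other arrays, by 0.12 (Ins2) to 2.11 (Sst) on the log2 scale, and Pyy is highest in F344lyp.

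The insulin genes came first among the beta cell products. Ins1 (probe set 1387815_at) read 13.87 and 13.86 in DR+/+, 14.20 and 14.18 in JB, 14.26 and 14.23 in JBlyp/lyp, 14.27 and 14.26 in F344, and 14.14 and 14.12 in F344lyp. The DR+/+ arrays were the lowest and F344lyp the next, with JBlyp/lyp and F344 overlapping at the top. Ins1 in DR+/+ was lower than in F344 by a difference of -0.40 (SE 0.12, 1.32-fold, limma with Benjamini-Hochberg adjusted p = 0.0281) and lower than in JBlyp/lyp (JBlyp/lyp minus DR+/+ 0.38, SE 0.12, adjusted p = 0.0340). Against JB the difference of -0.33 (SE 0.12) was not called (adjusted p = 0.0674).

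Ins2 (1370077_at) read 13.42 and 13.42 in DR+/+, 13.90 and 13.90 in JB, 13.98 and 13.87 in JBlyp/lyp, 13.86 and 13.76 in F344, and 13.54 and 13.68 in F344lyp. The order from DR+/+ upward was F344lyp, F344, JB and JBlyp/lyp, and only JB and JBlyp/lyp overlapped as neighbours. The DR+/+ mean differed by -0.39 (SE 0.13) from F344 (adjusted p = 0.0411), by -0.48 (SE 0.13) from JB (adjusted p = 0.0182), and JBlyp/lyp exceeded it by 0.51 (SE 0.13, adjusted p = 0.0131). These insulin calls were marginal. In fits without 1 array, where the lone array of a group is assumed to vary like the other groups, the differences kept their sign and stayed between 0.34 and 0.56 in size, but leaving out any 1 of the 4 arrays ended the calls of Ins1 and Ins2 against F344 (adjusted p 0.0887 to 0.228), of Ins2 against JB (0.0618 to 0.072) and of Ins1 in JBlyp/lyp against DR+/+ (0.0858 to 0.113). The call of Ins2 in JBlyp/lyp ended without either DR+/+ array (0.0543 and 0.0557) and without JBlyp/lyp replicate 1 (0.0662). Quantile normalization of the arrays lowered the Ins2 difference from F344 to -0.23 (adjusted p = 0.184) and that from JB to -0.18 (adjusted p = 0.319), and it ended the Ins2 call of JBlyp/lyp against DR+/+ (0.27, adjusted p = 0.123). A trended prior ended the calls of Ins2 against F344 (adjusted p = 0.0599) and of Ins1 in JBlyp/lyp against DR+/+ (0.0531), and median centring that of Ins2 against F344 (0.0544). When only the compared groups entered the fit, the calls of Ins2 against JB (adjusted p = 0.0643) and of Ins1 (0.130) and Ins2 (0.0668) in JBlyp/lyp against DR+/+ ended. Because the 2 insulin transcripts are near-identical, signal of either probe set may include the other gene, and probe sequences were not used here to check this. Both insulin probe sets also lie at the top of the range of every array, and whether they were saturated was not tested, which limits how the sizes of their differences compare with those of dimmer members.

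Iapp (1387660_at), whose product is co-secreted with insulin, read 10.72 and 10.54 in DR+/+, 12.64 and 12.17 in JB, 12.91 and 12.03 in JBlyp/lyp, 12.87 and 12.82 in F344, and 12.88 and 13.20 in F344lyp. The DR+/+ arrays lay at least 1.31 below all others, the JBlyp/lyp pair overlapped JB, F344 and F344lyp, and F344lyp lay just above F344. Iapp was 4.64-fold lower in DR+/+ than in F344 (-2.21, SE 0.27, adjusted p = 0.000192) and 3.42-fold lower than in JB (-1.77, SE 0.27, adjusted p = 0.000858). JBlyp/lyp exceeded DR+/+ by 1.84 (adjusted p = 0.000582).

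Gcg (1369888_at), the glucagon gene of alpha cells, read 11.19 and 11.27 in DR+/+, 13.15 and 13.26 in JB, 13.74 and 13.37 in JBlyp/lyp, 13.12 and 12.95 in F344, and 13.11 and 13.45 in F344lyp. Outside DR+/+ the 8 arrays spanned 12.95 to 13.74, with F344 lowest and JBlyp/lyp highest, and the F344lyp pair overlapped each of the 3 other groups. The DR+/+ mean was 3.49-fold lower than that of F344 (-1.81, SE 0.17, adjusted p = 4.60e-05) and 3.92-fold lower than that of JB (-1.97, SE 0.17, adjusted p = 3.54e-05). JBlyp/lyp was 5.01-fold above DR+/+ (2.32, SE 0.17, adjusted p = 1.08e-05).

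Sst (1367762_at), the somatostatin gene of delta cells, showed the largest difference of the 7 in each of the 3 comparisons with DR+/+. It read 10.53 and 10.51 in DR+/+, 12.86 and 12.65 in JB, 13.30 and 12.95 in JBlyp/lyp, 13.46 and 13.04 in F344, and 13.08 and 13.18 in F344lyp. JB lay below the other non-DR groups, whose arrays overlapped one another. In DR+/+ Sst was 6.62-fold lower than in F344 (-2.73, SE 0.18, adjusted p = 6.50e-06), 4.69-fold lower than in JB (-2.23, SE 0.18, adjusted p = 2.27e-05) and 6.08-fold lower than in JBlyp/lyp (JBlyp/lyp minus DR+/+ 2.60, SE 0.18, adjusted p = 7.96e-06).

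Ppy (1369196_at) read 10.26 and 10.48 in DR+/+, 12.70 and 12.15 in JB, 12.95 and 11.92 in JBlyp/lyp, 11.65 and 11.41 in F344, and 11.72 and 11.91 in F344lyp. After DR+/+, the F344 arrays were the lowest, and both JB-named groups lay above both F344 groups without overlap, JBlyp/lyp narrowly. The 2 JBlyp/lyp arrays were 1.03 apart, the widest replicate gap of any member in any group. Ppy in DR+/+ was 4.16-fold lower than in JB (-2.06, SE 0.30, adjusted p = 0.000729) and 2.24-fold lower than in F344 (-1.16, SE 0.30, adjusted p = 0.0148), and JBlyp/lyp exceeded it by 2.06 (adjusted p = 0.000589). The call against F344 ended without DR+/+ replicate 1 (-1.05, adjusted p = 0.088) and without F344 replicate 1 (-1.04, adjusted p = 0.102).

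Pyy (1393907_at) read 9.73 and 9.67 in DR+/+, 11.52 and 11.29 in JB, 11.80 and 11.20 in JBlyp/lyp, 11.19 and 10.87 in F344, and 12.01 and 12.25 in F344lyp. Its highest group was F344lyp, above all other arrays, and its second lowest was F344, so the F344 groups stood at opposite ends of the 8 non-DR arrays. Pyy was 2.51-fold lower in DR+/+ than in F344 (-1.33, SE 0.21, adjusted p = 0.000919) and 3.26-fold lower than in JB (-1.70, SE 0.21, adjusted p = 0.000252). JBlyp/lyp exceeded DR+/+ by 1.80 (adjusted p = 0.000143).

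Counted together, 7 of 7 hormone probe sets were called lower in DR+/+ than in F344, where 17.3% of all probe sets were called lower and 32.9% in either direction. In DR+/+ against JB 6 of 7 were called lower, against 15.4% of all, and Ins1 was the exception. In JBlyp/lyp against DR+/+ 7 of 7 were called higher, against 17.6% of all. These 3 comparisons share the same 2 DR+/+ arrays and are not independent of one another. The median member difference was -1.33 for DR+/+ minus F344, -1.77 for DR+/+ minus JB and 1.84 for JBlyp/lyp minus DR+/+, beside medians over all genes of -0.064, -0.043 and 0.053. Both DR+/+ arrays lay below all 8 others for each of the 7 members, which was so for 18.8% of all probe sets. In bulk islet RNA, fewer cells of a type and less of its RNA per cell cannot be told apart.

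With the Gapdh 3 prime minus 5 prime signal as a covariate, 0 of 7 members were called between DR+/+ and F344 by limma at the same threshold, and 3 had an unadjusted p under 0.05. The DR+/+ and F344 ranges of that signal do not overlap. The standard errors widened while the differences moved little, from -2.73 to -2.84 for Sst (SE 0.51, adjusted p = 0.0626) and from -2.21 to -2.04 for Iapp (SE 0.77, adjusted p = 0.28). Across all probe sets this fit called 90 between DR+/+ and F344, in place of 10206. In the same fit 5 of 7 members, Gcg, Sst, Ppy, Iapp and Pyy, were called between DR+/+ and JB, whose ranges of the Gapdh signal overlap. The same 5 were called between JBlyp/lyp and DR+/+, whose ranges do not. Over all 31042 probe sets the fit called 6103 and 4242 in these comparisons, in place of 8793 and 9949.

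With the beta-actin signal as the covariate instead, an alternative chosen after seeing the data, the losses fell elsewhere. Between DR+/+ and F344 those 5 members stayed called, from -2.63 for Sst (SE 0.19, adjusted p = 1.44e-05) to -0.89 for Ppy (SE 0.28, adjusted p = 0.0347), and Ins1 (adjusted p = 0.0612) and Ins2 (0.0865) did not. Between DR+/+ and JB, whose beta-actin ranges do not overlap, only Gcg (-1.94, adjusted p = 0.0123) and Sst (-1.85, adjusted p = 0.0130) stayed called, while Iapp was at -1.10 (adjusted p = 0.223), Ppy at -1.06 (0.252), Pyy at -1.28 (0.0873) and Ins2 at -0.44 (0.399). Between JBlyp/lyp and DR+/+ the same 5 were called and the insulin genes were not (Ins1 0.206, Ins2 0.126). Over all 31042 probe sets this fit called 9652 for DR+/+ against F344, 2923 for DR+/+ against JB and 6878 for JBlyp/lyp against DR+/+. The main fit called 10206, 8793 and 9949. Under both covariates each member kept the sign of its difference in these 3 comparisons.

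**Figure D2:**
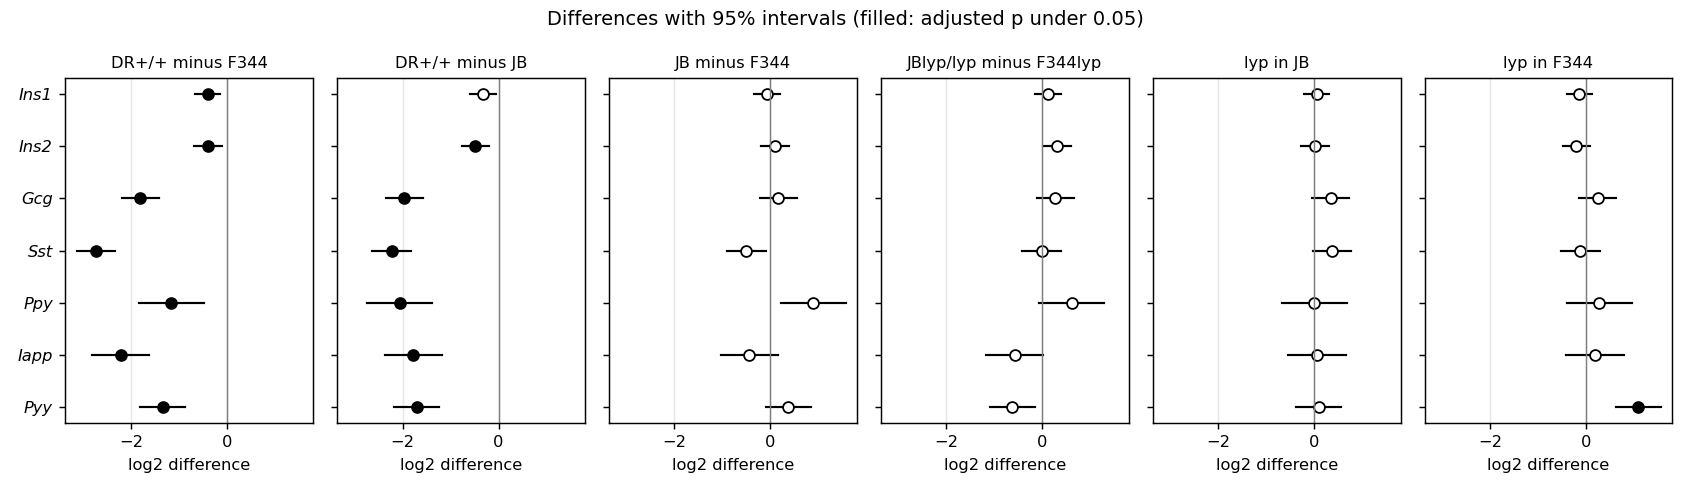
Difference between groups (log2, horizontal axis) for each of the 7 hormone genes in 6 comparisons; points are limma estimates, bars are 95% intervals, and filled points have an adjusted p under 0.05. All 7 points are filled for DR+/+ minus F344 and 6 for DR+/+ minus JB, whereas the 4 other panels hold 1 filled point, Pyy for lyp in F344 at 1.10.

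Genes that make, store and sense the hormones were examined as lists with the members left out. Among 14 measured genes of prohormone processing and granule proteins, 9 were called lower and 3 higher in DR+/+ than in F344, where 23.8% of genes were lower and 16.3% higher, and their median difference was -1.21. Pcsk1n, which encodes the inhibitor proSAAS of the convertase PC1/3, differed by -4.16, and Pcsk2, the convertase that cuts proglucagon and proinsulin, by -3.56 (adjusted p = 1.96e-06). Against JB, where 18.4% of genes were lower and 15.5% higher, 10 were lower and 3 higher, again led by Pcsk1n (-3.41) and Pcsk2 (-3.06).

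Receptors for islet hormones and incretins were called lower in DR+/+ than in F344 in 10 of 19 cases and higher in 1. Over all genes 23.8% were lower and 16.3% higher. The glucagon receptor gene Gcgr differed by -2.66 and Gipr, the receptor of the incretin GIP, by -2.44. Against JB, where 18.4% of genes were lower and 15.5% higher, 7 of 19 were lower and 1 higher. They were led by Glp1r, the receptor of the incretin GLP-1, at -2.77 and the somatostatin receptor gene Sstr2 at -1.93. Of 27 other peptide hormone genes, 7 were lower and 2 higher than in F344, a share of lower genes near the 23.8% of all genes. The largest differences were those of Trh, the precursor of thyrotropin-releasing hormone, at -3.90 and Npy, the neuropeptide Y gene of the Ppy and Pyy family, at -2.49. Lists overlap, as Glp1r and Npy are also beta cell markers below and Sstr2 is an alpha cell marker.

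Among lists of islet cell markers, those of beta cells and of transcription factors shared by endocrine cells were mostly lower in DR+/+, and those of alpha, delta and PP cells were mixed. Of 13 beta cell markers 13 were lower than in F344, where 23.8% of all genes were called lower and 16.3% higher. Their median difference was -2.46, and the granule phosphatase Ptprn2 at -3.86 and the prolactin receptor Prlr at -3.30 led them. Transcription factors shared by endocrine cells were lower in 7 of 11 cases and higher in 0, with Nkx2-2 at -2.21 and Myt1 at -1.77. Alpha cell markers were mixed, 5 of 12 lower and 2 higher, with Slc38a4 at -2.02 and the vitamin D binding protein gene Gc at -1.91. Delta cell markers were lower in 3 of 7 cases, including Hadh at -2.29 and the calcium-sensing receptor gene Casr at -2.03. The 1 called higher was the transcription factor gene Hhex, at 0.99. PP cell markers were lower in 2 of 7 cases and higher in 3, with Serpina1 at -2.10 and Id2 at 2.40. Their summed level in DR+/+ (11.54 to 11.66) was above F344 (10.96 to 11.03) but below JB (11.76 to 12.02) and JBlyp/lyp (11.68 to 12.09). The summed levels of the alpha (11.47 to 11.52) and delta (10.98 to 11.05) lists were lower in DR+/+ than on every other array. In F344 they were 12.39 to 12.48 and 12.50 to 12.65. The brightest genes weigh most in such sums, here Gc (mean log2 value 11.69) and Hadh (11.90). By the median of centred genes the gaps were small. The alpha list was at -0.21 and -0.23 in DR+/+, with the next array, of F344lyp, at -0.16. The delta list was at -0.17 and -0.39, with the next array, of JBlyp/lyp, at -0.11.

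Markers of other cells moved in both directions in the same arrays. Between DR+/+ and F344, 23.8% of all genes were called lower and 16.3% higher. Endothelial markers were higher in 6 of 8 cases and lower in 1, with the receptor genes Tek at 2.48 and Kdr at 2.0, and their summed level was 13.47 to 13.52 in DR+/+ against 11.86 to 12.59 on the other arrays. Stellate and fibroblast markers were higher in 8 of 10 cases and lower in 1, with Pdgfra at 2.04 and Col1a2 at 1.98, and their summed level was 13.43 to 13.47 against 12.10 to 12.66. Acinar markers were lower in 20 of 20 cases, with a summed level of 14.87 to 14.89 in DR+/+, 15.64 to 16.29 in JB and JBlyp/lyp, and 17.22 to 17.90 in the F344 groups. The part of these cells in the hormone differences was not tested.

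**Figure D3:**
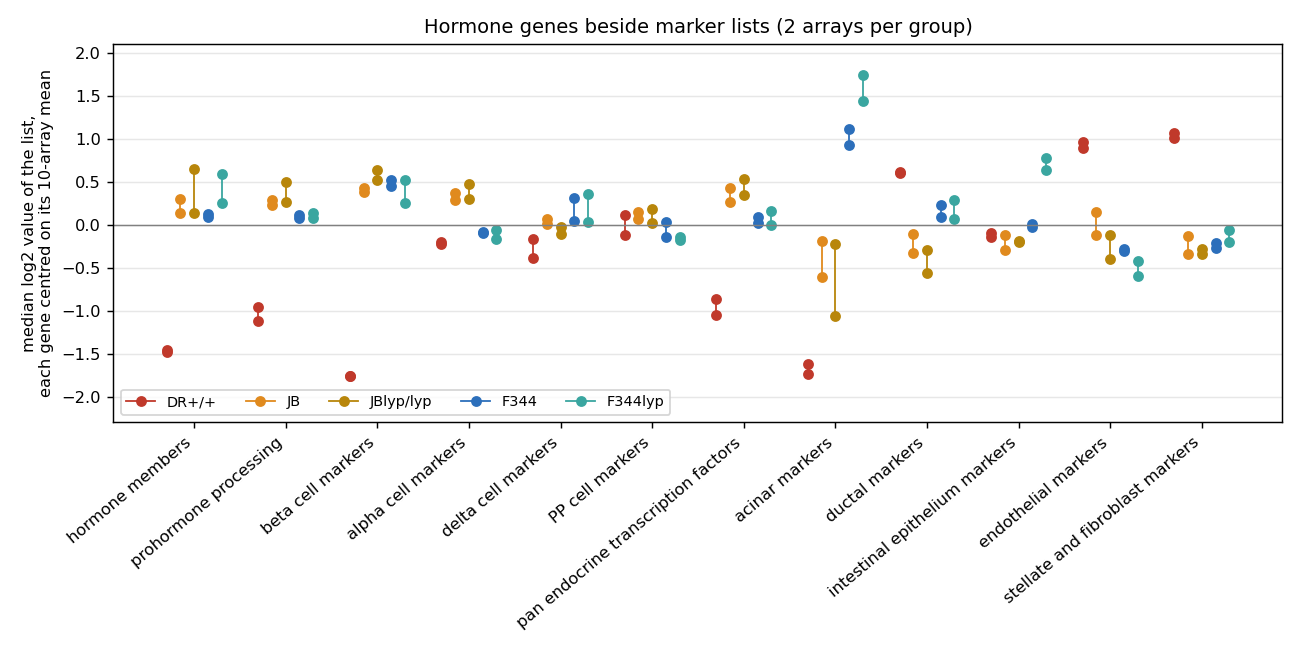
Median log2 value of each gene list on each array after every gene was centred on its mean over the 10 arrays (vertical axis), for the hormone genes and 11 other lists (horizontal axis); points are arrays and lines join the 2 of a group. The DR+/+ arrays are lowest for the hormone genes, at -1.45 and -1.48, and for acinar markers, at -1.62 and -1.74. They are also lowest for the processing, beta, alpha, delta and endocrine transcription factor lists. They are highest for endothelial, stellate and ductal markers, the last at 0.61 and 0.59.

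Setting all 3 BB-related groups against both F344 groups, 4 of 7 hormone probe sets were called lower and 0 higher, where 17.0% of all probe sets were called lower and 16.2% higher. Iapp differed by -1.11 (SE 0.17, 2.15-fold, adjusted p = 0.00104), Sst by -1.06 (SE 0.12, 2.08-fold, adjusted p = 0.000145), Pyy by -0.71 (SE 0.14, 1.64-fold, adjusted p = 0.00309) and Gcg by -0.50 (SE 0.11, 1.41-fold, adjusted p = 0.00727). Ins1 (-0.094), Ins2 (0.039) and Ppy (0.070) were not called. For each of the 7 members the 6 BB-related arrays overlapped the 4 F344 arrays.

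These 4 calls rested on the DR+/+ arrays. Without the DR+/+ arrays Sst was at -0.25 (adjusted p = 0.22), Iapp at -0.51 (adjusted p = 0.109), Pyy at -0.13 (adjusted p = 0.615), and Gcg turned to 0.22 (adjusted p = 0.263). Ppy was then called higher in the JB-named groups, by 0.76 (SE 0.23, adjusted p = 0.0441). It was the 1 member called of 7, where 7163 of all 31042 probe sets were called in either direction. With the group as a random block, which lets spread between groups of a side into the error, 0 of 7 were called by limma. In that fit 1 had an unadjusted p under 0.05, and 959 of all 31042 probe sets were called, in place of 10300. The Gapdh covariate also took the count to 0 of 7, with Sst at -1.17 (adjusted p = 0.807) and Iapp at -0.93 (adjusted p = 0.878). That fit called 8 of all 31042 probe sets, so the loss was not particular to the members. The beta-actin covariate left 3 member calls, and 7849 over all probe sets, and ended that of Gcg (-0.51, adjusted p = 0.0527). Quantile normalization ended the Gcg call (-0.16, adjusted p = 0.169) and called Ins2 higher (0.28, adjusted p = 0.0216).

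JB against F344 compared the backgrounds without lyp and without DR+/+. None of the 7 members was called by limma, 2 had an unadjusted p under 0.05, and 11.6% of all probe sets were called. Ppy had the largest difference, 0.90 higher in JB (95% interval 0.22 to 1.57, adjusted p = 0.0912), and the JB arrays lay above the F344 arrays. Sst was lower by a difference of -0.50 (interval -0.90 to -0.095, adjusted p = 0.113), again without overlap. The insulin genes differed by -0.069 (Ins1, interval -0.34 to 0.20) and 0.094 (Ins2, interval -0.19 to 0.38). Gcg (0.17), Iapp (-0.44) and Pyy (0.37) had intervals that included 0. When only the JB and F344 arrays entered the fit, Ppy was called (adjusted p = 0.0486).

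With lyp on both sides, JBlyp/lyp against F344lyp, 0 of 7 were called by limma, 2 had an unadjusted p under 0.05, and 14.1% of all probe sets were called. Pyy was lower in JBlyp/lyp by a difference of -0.63 (95% interval -1.09 to -0.16, adjusted p = 0.0786), the opposite sign to that between JB and F344. Ins2 was higher by 0.31 (interval 0.026 to 0.60, adjusted p = 0.142) and Ppy by 0.62 (interval -0.059 to 1.30). Iapp was at -0.57 (interval -1.17 to 0.028), Gcg at 0.27, Ins1 at 0.12 and Sst at -0.0085. The JBlyp/lyp arrays differed from each other most for Ppy, Iapp and Pyy, and leaving either out changed the calls. Without JBlyp/lyp replicate 1, Iapp (-1.01, adjusted p = 0.0134) and Pyy (-0.93, adjusted p = 0.012) were called, and without replicate 2 Ppy was (1.13, adjusted p = 0.0171). Under quantile normalization Ins2 (0.75, adjusted p = 0.00405) and Gcg (0.55, adjusted p = 0.0222) were called.

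Over these same strain comparisons the acinar list was lower in the JB-named groups in 18 of 20 cases for JB against F344 and in 20 of 20 for JBlyp/lyp against F344lyp, while the hormone genes had medians of 0.094 and 0.12. Over all genes, 8.22% were called lower and 4.79% higher in JB, and 11.3% lower and 4.7% higher in JBlyp/lyp. Genes of hormone processing were called higher in 2 of 14 cases and lower in 0 in each of these comparisons, namely Pam, which amidates peptides, by 0.69 and 0.71, and Chgb, a granule protein, by 0.56 and 0.67.

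The effect of lyp was examined on each background. In JBlyp/lyp against JB, 0 of 7 members were called, 0 had an unadjusted p under 0.05, and 0.00322% of all probe sets (1 of 31042) were called by limma. Sst was higher by 0.37 (95% interval -0.028 to 0.78) and Gcg by 0.35 (interval -0.034 to 0.74). Ins1 (0.054, interval -0.21 to 0.32), Ins2 (0.021, interval -0.27 to 0.31), Iapp (0.061, interval -0.54 to 0.66), Ppy (0.0078, interval -0.67 to 0.69) and Pyy (0.098, interval -0.37 to 0.57) lay near 0, with wide intervals for the last 3.

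In F344lyp against F344, Pyy was the 1 member called of 7, where 1.12% of all probe sets were called higher and 0.383% lower. Its 2 F344lyp arrays (12.01 and 12.25) lay above both F344 arrays (11.19 and 10.87), a rise of 1.10 (SE 0.21, 95% interval 0.63 to 1.57, 2.14-fold, adjusted p = 0.0382). The call ended when any 1 of the 4 arrays was left out, with rises between 0.93 and 1.26 and adjusted p between 0.0995 and 0.347, under quantile normalization (0.85, adjusted p = 0.0795), and with the Gapdh covariate (1.07, adjusted p = 0.180), a signal whose ranges in the 2 groups do not overlap. Quantile normalization also called Ins2 lower in F344lyp (-0.71, adjusted p = 0.0233). The difference between the lyp effects on the 2 backgrounds was -0.999 for Pyy (SE 0.30, unadjusted p = 0.0074, adjusted p = 0.371) and was not called, where 0.283% of all probe sets were.

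The other 6 members were not called for lyp in F344. Ppy, the neighbour of Pyy on chromosome 10, was at 0.29 (interval -0.39 to 0.96), Gcg at 0.25, Iapp at 0.20, Sst at -0.11, Ins1 at -0.13 and Ins2 at -0.20. Under quantile normalization the Ins2 difference was -0.71 and was called (adjusted p = 0.0233).

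Markers of intestinal epithelium, where Pyy is also made, were higher in the same F344lyp arrays. Of 12 such markers 4 were called higher and 0 lower, where 1.58% of genes were higher, and their median difference was 0.56 beside 0.037 for all genes. Si, the brush border enzyme sucrase-isomaltase, rose by 3.03, Lgals4, a gut lectin, by 2.37, Cdh17, a gut cadherin, by 2.15 and Muc2, the goblet cell mucin, by 2.12. The summed level of the list was 10.60 on both F344lyp arrays, 9.61 and 9.74 in F344, and 8.88 to 10.01 on the other 6. In JBlyp/lyp against JB, 0 of the 12 were called, where 0.00703% of genes were called higher. Acinar markers were also called higher in F344lyp than in F344 in 3 of 20 cases and lower in 0. The part of gut or acinar RNA in the Pyy rise was not tested.

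**Figure D4:**
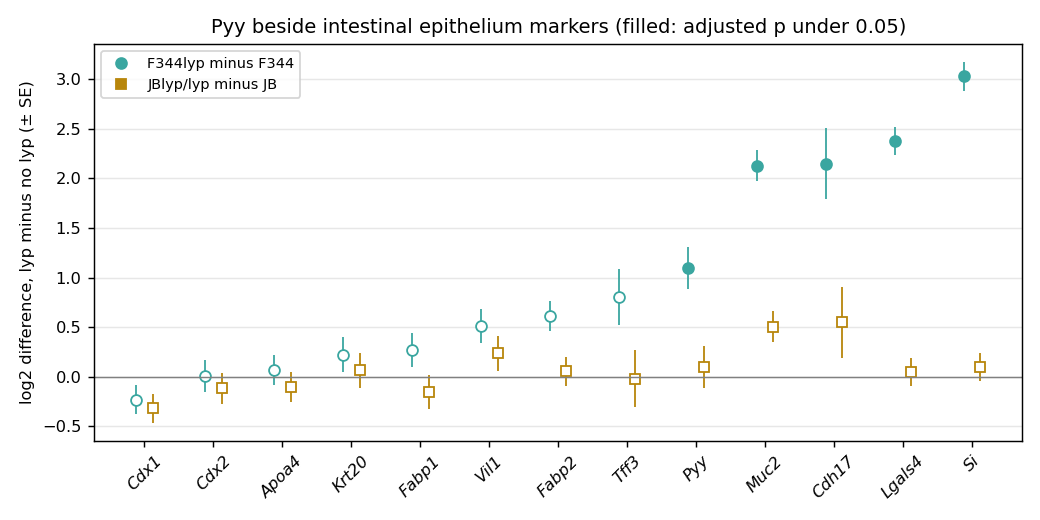
Effect of lyp (log2 difference with SE bars, vertical axis) on Pyy and 12 intestinal epithelium markers in F344 (circles) and JB (squares); filled symbols have an adjusted p under 0.05. Pyy (1.10), Muc2, Cdh17, Lgals4 and Si (3.03) are filled for F344, and none is filled for JB.

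Between the lowest and the highest group mean, Sst spanned 2.73, Pyy 2.43, Iapp 2.41, Gcg 2.32 and Ppy 2.06 on the log2 scale. Ins1 spanned 0.40 and Ins2 0.51, as read at the top of the array range. Without DR+/+ the spans were 0.13 for Ins1, 0.31 for Ins2, 0.50 for Sst, 0.52 for Gcg, 0.63 for Iapp, 0.90 for Ppy and 1.10 for Pyy. As a measure of likeness, each gene was centred on its own mean and the root mean square difference from another gene was taken over the 10 arrays. Of the members other than the insulin genes, Sst and Iapp were closest, at 0.312. The small distance between Ins1 and Ins2, 0.0974, goes with their small spans.

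Among 8587 other genes with a mean log2 value of at least 6, the profiles nearest to Gcg by this measure were those of Wdr6 (0.118), Lrp11 (0.124) and Acly, the citrate lyase of fatty acid synthesis (0.143). Those nearest to Sst were Upb1 (0.141), Pklr, the liver-type pyruvate kinase (0.152), and Spint1, a protease inhibitor (0.158). Ppy was nearest to Pcp4 (0.154), a calmodulin-binding protein, Cbarp (0.163) and Pgbd5 (0.197). For Pyy the nearest were Pex7 (0.183), a peroxisomal import receptor, Ehmt2 (0.192), a histone methyltransferase, and Myo1d (0.205), an unconventional myosin. These genes were chosen for profiles like those of members that are low in DR+/+, so that their own low DR+/+ values, from -2.54 (Upb1) to -1.52 (Myo1d) against the other 8 arrays, follow from the choice.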

How the data were processed

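The deposited values are log2 intensities of 10 arrays, for which the submitters' processing notes name GCOS and RMA without versions. The file holds 31099 probe sets, and 57 control probe sets of the manufacturer were left out. No scanner files were analysed here, and for arrays their number, 2 per group, limits the precision.

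All 31042 others entered a model of 5 group means in limma 3.58.1 in R 4.3.3 (two-sided moderated tests, 5 residual and 4.72 prior degrees of freedom), and 9 contrasts were taken. Calls needed an adjusted p under 0.05, by Benjamini-Hochberg over all probe sets. The fit was tested on simulated data in which few probe sets were changed. Between single groups a log2 change of 0.5 was recovered in at most 4.19% of cases and a change of 1 in 65.3% to 74.8%. For the BB-related groups against F344 these shares were 37.3% and 96.2%. For the difference of the lyp effects a change of 1 was recovered in 12.1%. Differences and their standard errors (SE) are log2 values, and 95% intervals are not adjusted.

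Symbols came from the platform annotation (1 symbol for 20826 probe sets, several for 436, none for 9780), of which 20758 were found in RefSeq by gene identifier and 68 were not. In lists the probe set with the highest mean stood for its gene, and a list's summed level is the log2 of its summed intensities on an array. Promoters and start sites came from RefSeq, GRCr8. All 7 members matched. The build the submitters used is not stated in these sources.

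The members and lists were chosen with earlier results of these data known. The rule named all members, up to 4 called genes of each list with the largest difference for the BB-related groups against F344 and up to 2 for each other comparison, and the 3 genes most like Gcg, Sst, Ppy and Pyy, passing over uncharacterised loci. Hhex was named outside this rule, as the delta cell marker called higher in DR+/+ than in F344. Alternatives were the normalization, the prior, a filter on dim probe sets, the samples in the fit, the replicate number as a block, the Gapdh signal or, added later, the beta-actin signal as a covariate, and leaving out arrays.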

Additional observations from a re-analysis of the deposited data

How the results depend on the processing

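With 2 arrays per group and no scanner files analysed here, differences of about the size of the insulin genes' were at the limit of what was called. Of 511 values under alternatives other than a left-out array, 449 kept their direction and side of the threshold, 42 lost the call, 7 gained one and 13 turned sign. Of 322 values with 1 array left out, 276 kept both, 25 lost the call, 3 gained one and 18 turned sign, each of these below the threshold.

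Member counts changed as follows. For the BB-related groups against F344 the 4 calls became 0 with the Gapdh covariate, 0 with the group as a random block and 1 without the DR+/+ arrays. Calls over all 31042 probe sets went from 10300 to 8, 959 and 7163 in these fits. With the Gapdh covariate the counts were also 0 for DR+/+ against F344 and 0 for lyp in F344 (limma; 1, 3 and 1 members had an unadjusted p under 0.05 in these 3 comparisons). Calls over all probe sets with the Gapdh covariate fell to 90 for DR+/+ against F344 and to 123 for lyp in F344. With the beta-actin covariate, chosen after seeing the data, the count for DR+/+ against JB was 2, where calls over all probe sets fell from 8793 to 2923. For JB against F344 the count was 1 when only those groups were fitted. For JBlyp/lyp against F344lyp it was 1 with the replicate block (Pyy, adjusted p = 0.0489) and 2 under quantile normalization (Ins2 at 0.75 and Gcg at 0.55). For lyp in F344 the count under quantile normalization stayed at 1, but the member was Ins2 in place of Pyy. The cause was not tested. With 1 array left out, fewer members were called in every fit for DR+/+ against F344 or JB and for JBlyp/lyp against DR+/+. The same held for lyp in F344. The count was unchanged for the BB-related groups against F344 and rose in some fits for JBlyp/lyp against F344lyp. Such fits leave a lone array in a group, so their counts are not printed.

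None of the values that turned sign passed the threshold. For the BB-related groups against F344 these were Ins1 at 0.025 and Gcg at 0.22 without DR+/+, and Ppy at -0.11 with the Gapdh and -0.32 with the beta-actin covariate. Median centring put Sst at 0.016 for JBlyp/lyp against F344lyp. Under quantile normalization that Sst value was 0.32, Ins2 for JB against F344 was -0.049, Ppy for lyp in JB -0.021, Iapp for lyp in F344 -0.081 and Iapp for the difference of the lyp effects 0.10. With the Gapdh covariate Ins2 for lyp in JB was -0.024, Iapp for lyp in JB -0.064 and Gcg for the difference of the lyp effects -0.069. With 1 array left out, some estimates fell on both sides of 0. For Ppy in the BB-related groups against F344 they ranged from -0.10 to 0.24. For Sst they ranged from -0.18 to 0.17 in JBlyp/lyp against F344lyp and from -0.32 to 0.094 for lyp in F344. For lyp in JB the ranges were -0.031 to 0.073 for Ins2, -0.50 to 0.52 for Ppy, -0.38 to 0.50 for Iapp and -0.20 to 0.40 for Pyy, and for the difference of the lyp effects -0.080 to 0.29 for Gcg, -0.79 to 0.23 for Ppy and -0.57 to 0.30 for Iapp.

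The replicate numbers in the titles were not taken to pair the samples, since deviations of same-numbered arrays correlated above 0.1 in only 5 of 10 pairs of groups (-0.10 to 0.65, median 0.14). With the number as a block, 4 members were called for the BB-related groups against F344, 7 for DR+/+ against F344, 6 for DR+/+ against JB, 7 for JBlyp/lyp against DR+/+ and 1 for lyp in F344.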
